A study of Mus musculus with 8 samples.

Results

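A set of 10 marker genes of the hippocampal fields were followed in RNA sequencing of the hippocampus of female C57BL/6 J mice. They mark the granule cells of the dentate gyrus (Prox1, C1ql2, Dsp and Tdo2), CA1 (Wfs1 and Fibcd1), CA2 (Pcp4, Rgs14 and Amigo2) and CA3 (Bok). The genes were taken by symbol, and all 10 were found among the 29442 genes of the count table and among the 27612 genes tested. The study asked how long-term dehydroepiandrosterone (DHEA, an adrenal androgen precursor) alters hippocampal transcripts. Mice aged 6 to 8 weeks at the start received DHEA subcutaneously at 30 mg/kg/day for 21 days (4 libraries, HipR3, HipR4, HipR7 and HipR11) or its vehicle, sesame oil (4 libraries, HipR5, HipR9, HipR10 and HipR16). Each library is 1 mouse, and the mice had been through behavioral tests before the tissue was taken. The labels name the tissue as hippocampus and the study's methods as its ventral portion, so the share of each field in a sample was set by dissection and is not known. Total counts ranged from 31483772 to 38038361 per library, and each marker had at least 158 counts in every library, so markers of all 4 fields were detected in each sample.

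The hippocampus relays signals from the granule cells of the dentate gyrus through their mossy fibers to the pyramidal cells of CA3, and from there to CA1, with CA2 as a small field between them that serves social memory. The fields differ in their transcripts, and markers of this kind are used to tell which fields a tissue sample holds. A marker need not be confined to its field. In bulk tissue, fewer cells of a type and less RNA per cell cannot be told apart.

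Bok codes for a Bcl-2 family protein and is the CA3 marker. It is also the one gene of the 9 found in the RefSeq promoter table (GRCm38.p6, another build than the GRCm39 named in the submitters' processing notes) whose 250 bases before the start held the letters AGAACA or, on the other strand, TGTTCT, a half-site of androgen and glucocorticoid receptors. These letters were searched because the treatment is an androgen precursor. They stood in 16.1% of all 32851 promoters of that length and in 1 of the 10 windows of the marker genes (Prox1 has a pair of windows). The window of Bok, on the plus strand at chr1:93685325-93685574, is shown with the match in capitals, 127 bases before the start.
Bok: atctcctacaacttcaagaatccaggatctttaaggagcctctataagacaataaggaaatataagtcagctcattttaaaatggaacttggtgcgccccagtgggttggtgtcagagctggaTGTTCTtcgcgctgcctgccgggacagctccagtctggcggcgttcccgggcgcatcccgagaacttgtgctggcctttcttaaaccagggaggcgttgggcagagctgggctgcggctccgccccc
A match of 6 letters is a description of this window, and no binding was measured.

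None of the 10 markers differed between DHEA and sesame oil after adjustment. With edgeR's quasi-likelihood test and Benjamini-Hochberg adjustment over all genes, 0 of the 10 had an adjusted p under 0.05, as did 0 of all 27612 genes tested (0%). DESeq2 called 153 genes of the table at this threshold, none of them among the markers, and limma-trend called 0. At an unadjusted p under 0.05, 2 of the 10 markers, Tdo2 and Bok, were higher in the DHEA libraries and 0 were lower. The same held for 2571 of all genes (9.31%), of which 4.82% of all genes were higher in DHEA and 4.49% lower. All 10 markers averaged 100 counts or more per library, and among the 12780 genes that did so, called well-counted genes from here on, the share was 15.7%. The DHEA and sesame oil values overlapped for each of the 10, whereas they did not overlap for 5.04% of all genes and for 8.46% of the well-counted genes. No marker reached the thresholds stated in the study's methods, an unadjusted p under 0.05 with a change of at least 2-fold, which 1.6% of all genes met. Of the 10, 4 markers had a log2 fold change above 0 and 6 below 0, with a median of -0.035, and the median over the well-counted genes was 0.012. Positive values mean a higher level under the label DHEA. The study's own table of changed genes carries the opposite sign for every gene in it. The qRT-PCR directions that the study gives for other samples follow that table and not the labels. Whether the labels or the table are exchanged cannot be told apart from the counts. Each direction rests on the labels and would turn if they were exchanged.

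**Figure D1:**
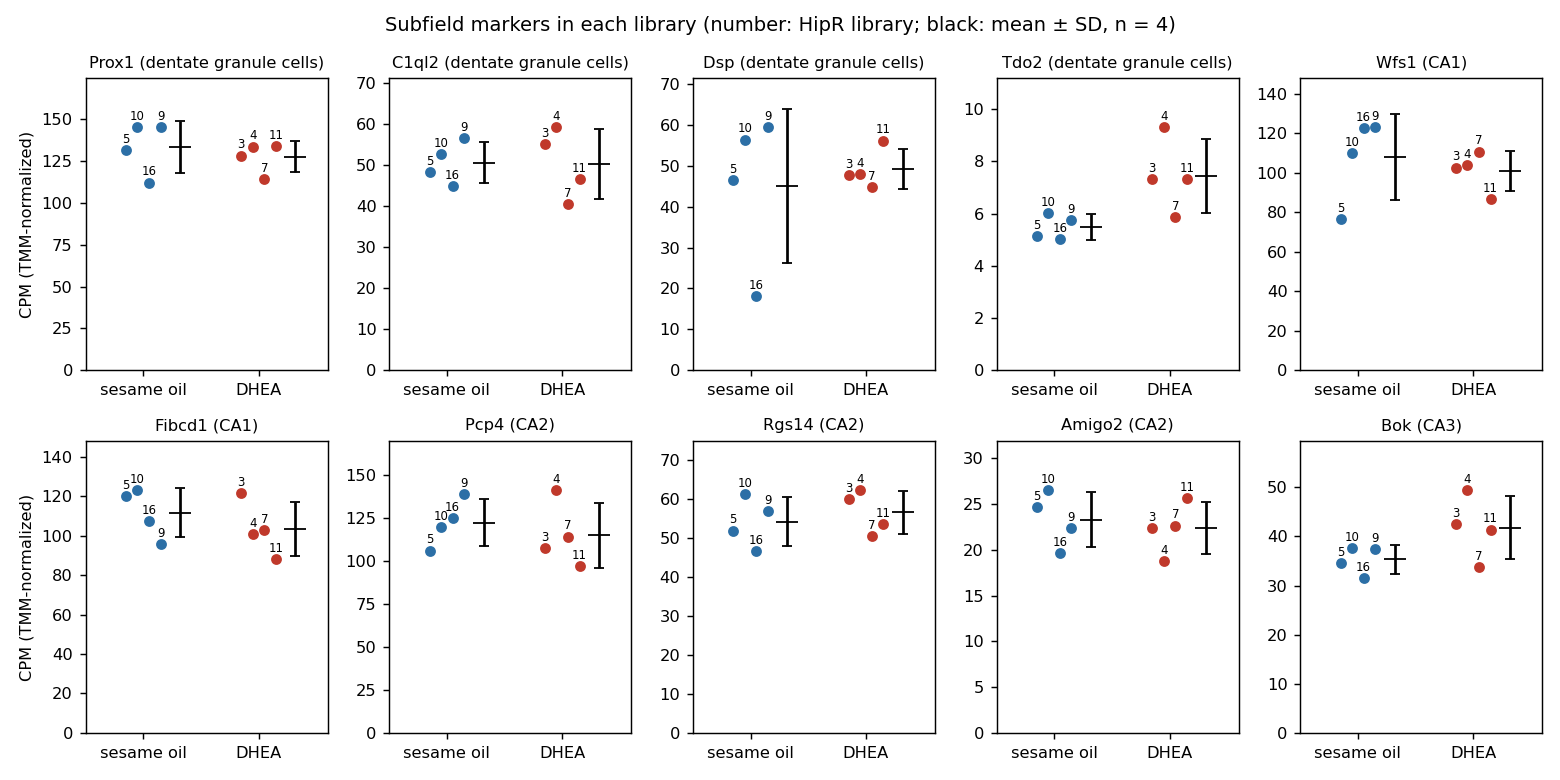
CPM (counts scaled to the library total, normalized by TMM) of the 10 markers in each of the 8 libraries, with sesame oil in blue and DHEA in red, the HipR number above each point, and the mean ± SD of 4 libraries in black. In each panel the ranges of the groups overlap, and the library HipR16 lies far below the others for Dsp.

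Prox1, the homeobox factor that maintains granule cell identity, was at nearly the same level in both groups. Its CPM were 128, 134, 114 and 134 in the DHEA libraries HipR3, HipR4, HipR7 and HipR11, and 132, 145, 112 and 145 in the sesame oil libraries HipR5, HipR10, HipR16 and HipR9. The lowest values were in HipR16 and HipR7, 1 of each group. The means were 128 ± 9.22 and 134 ± 15.6 CPM (SD, n = 4), and the log2 fold change was -0.066 with a 95% interval of -0.23 to 0.10 (edgeR, adjusted p = 0.757). Without HipR16 it was -0.15 and without HipR7 -0.017, with edgeR adjusted p of 0.682 and 0.958.

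C1ql2, a secreted protein of mossy fiber synapses, had means of 50.4 ± 8.47 CPM with DHEA and 50.7 ± 5.11 CPM with sesame oil (SD, n = 4). The log2 fold change was -0.0093, with an interval of -0.23 to 0.21. Its highest and lowest values, 59.3 in HipR4 and 40.4 in HipR7, were both in the DHEA group. Without HipR3 and HipR4, the log2 fold change was -0.23 (edgeR adjusted p = 0.566, unadjusted under 0.05).

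Dsp, the desmosomal linker desmoplakin, differed among the sesame oil libraries far more than between the groups. Its CPM were 47.6, 48.0, 44.8 and 56.1 with DHEA (HipR3, HipR4, HipR7 and HipR11) and 46.5, 56.4, 18.1 and 59.5 with sesame oil (HipR5, HipR10, HipR16 and HipR9). The sesame oil library HipR16 had 570 Dsp counts, against 1539 to 2051 in the other 7 libraries. Relative to the counts of Prox1 in the same library, Dsp stood at 16.1% in HipR16 and at 35.3% to 41.8% elsewhere. HipR16 was thus low in Dsp also when set against another granule cell marker. The group means were 49.1 ± 4.88 and 45.1 ± 18.8 CPM, and the log2 fold change of 0.12 (interval -0.34 to 0.59, adjusted p = 0.858) turned to -0.15 when HipR16 was left out (adjusted p = 0.729). Over all 8 libraries, the coefficient of variation of Dsp was 27.4%, higher than in 95.9% of the well-counted genes. That of Prox1 was 9.42%, close to their median, 9.31%.

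Tdo2, the tryptophan dioxygenase that opens the kynurenine pathway, had the highest fold change of the 10 markers. Its CPM were 7.32, 9.31, 5.85 and 7.31 with DHEA and 5.13, 6.03, 5.01 and 5.75 with sesame oil, in the same library order. In all, 3 of the 4 DHEA libraries lay above every sesame oil library, and HipR7 lay below the highest of them. The means were 7.45 ± 1.42 and 5.48 ± 0.487 CPM (SD, n = 4), a 1.36-fold difference, with a log2 fold change of 0.44 (SE 0.15, interval 0.12 to 0.77). This did not pass the adjusted threshold (p = 0.0104, adjusted p = 0.381 in edgeR), and the two-sided exact permutation test of the CPM gave p = 0.0571, where 0.0286 is the smallest p that 4 libraries against 4 allow. The log2 fold change was 0.31 without HipR4 and 0.26 without HipR3 and HipR4, and in both fits its unadjusted p was above 0.05 (adjusted p = 0.717 and 0.744). Tdo2 rested on 158 to 332 counts per library, the fewest of the 10 markers.

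Both CA1 markers were at similar levels in the groups. Wfs1, coding for the endoplasmic reticulum protein wolframin, had CPM of 102, 104, 111 and 86.7 with DHEA (HipR3, HipR4, HipR7 and HipR11) and of 76.3, 110, 123 and 123 with sesame oil (HipR5, HipR10, HipR16 and HipR9). The lowest library was HipR5 and the groups overlapped almost throughout. The log2 fold change was -0.096 (interval -0.34 to 0.14, edgeR adjusted p = 0.750), and -0.23 without HipR5 (adjusted p = 0.727, unadjusted under 0.05) but -0.027 without HipR9. Fibcd1, a membrane receptor with a fibrinogen-like domain, ranged from 88.1 to 121 CPM with DHEA and from 95.8 to 123 CPM with sesame oil, and its log2 fold change was -0.11 (interval -0.31 to 0.079). It was -0.20 without HipR3 and -0.23 without HipR3 and HipR4, with an unadjusted p under 0.05 in both fits (edgeR adjusted p = 0.639 and 0.566), and -0.044 without HipR11. Both genes are also more abundant in dorsal than in ventral CA1. In a list of 6 dorsal genes that includes them, Spink8, higher with DHEA, had an unadjusted p under 0.05 (beside 9.31% of all genes), and the other 5 had log2 fold changes below 0. The summed CPM of the list were 398 ± 39.4 with DHEA and 434 ± 24.6 with sesame oil (two-sided exact permutation p = 0.171, n = 4 per group).

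The 3 CA2 markers did not share a direction. Pcp4, a small regulator of calmodulin, had CPM of 107, 142, 114 and 97.3 with DHEA and of 106, 120, 125 and 139 with sesame oil, and the log2 fold change was -0.088 (interval -0.29 to 0.12). Rgs14, a regulator of G protein signaling that restrains synaptic plasticity in CA2, ranged from 50.6 to 62.4 CPM with DHEA and from 46.7 to 61.3 CPM with sesame oil, with a log2 fold change of 0.063 (interval -0.12 to 0.25). Amigo2, an adhesion molecule of the leucine-rich repeat family, ranged from 18.7 to 25.6 CPM and from 19.6 to 26.6 CPM, with a log2 fold change of -0.060 (interval -0.29 to 0.17). Their edgeR adjusted p were 0.725, 0.797 and 0.860, and the intervals bound any difference of these genes only to about the width given. Without HipR4 the log2 fold change of Pcp4 was -0.21 (edgeR adjusted p = 0.545, unadjusted under 0.05), and without HipR11 it was -0.016. Leaving out HipR3 and HipR4 changed the sign of Rgs14 (-0.064) and Amigo2 (0.044).

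Bok was 1.18-fold higher in the DHEA libraries. Its CPM were 42.6, 49.5, 33.7 and 41.4 with DHEA (HipR3, HipR4, HipR7 and HipR11) and 34.6, 37.7, 31.5 and 37.5 with sesame oil (HipR5, HipR10, HipR16 and HipR9). As for Tdo2, 3 DHEA libraries lay above every sesame oil library, whereas HipR7 lay among them. The log2 fold change was 0.24 (SE 0.099, interval 0.034 to 0.45), with p = 0.0250 and an adjusted p of 0.463 in edgeR, and p = 0.143 came from the two-sided exact permutation test (n = 4 per group). Without HipR4 it was 0.14, and without HipR3 and HipR4 it was 0.082 (edgeR adjusted p = 0.770 and 0.786). The unadjusted p was above 0.05 in both of these fits, and also without HipR5 (0.23), without HipR16 (0.19), with filterByExpr and with limma-trend.

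**Figure D2:**
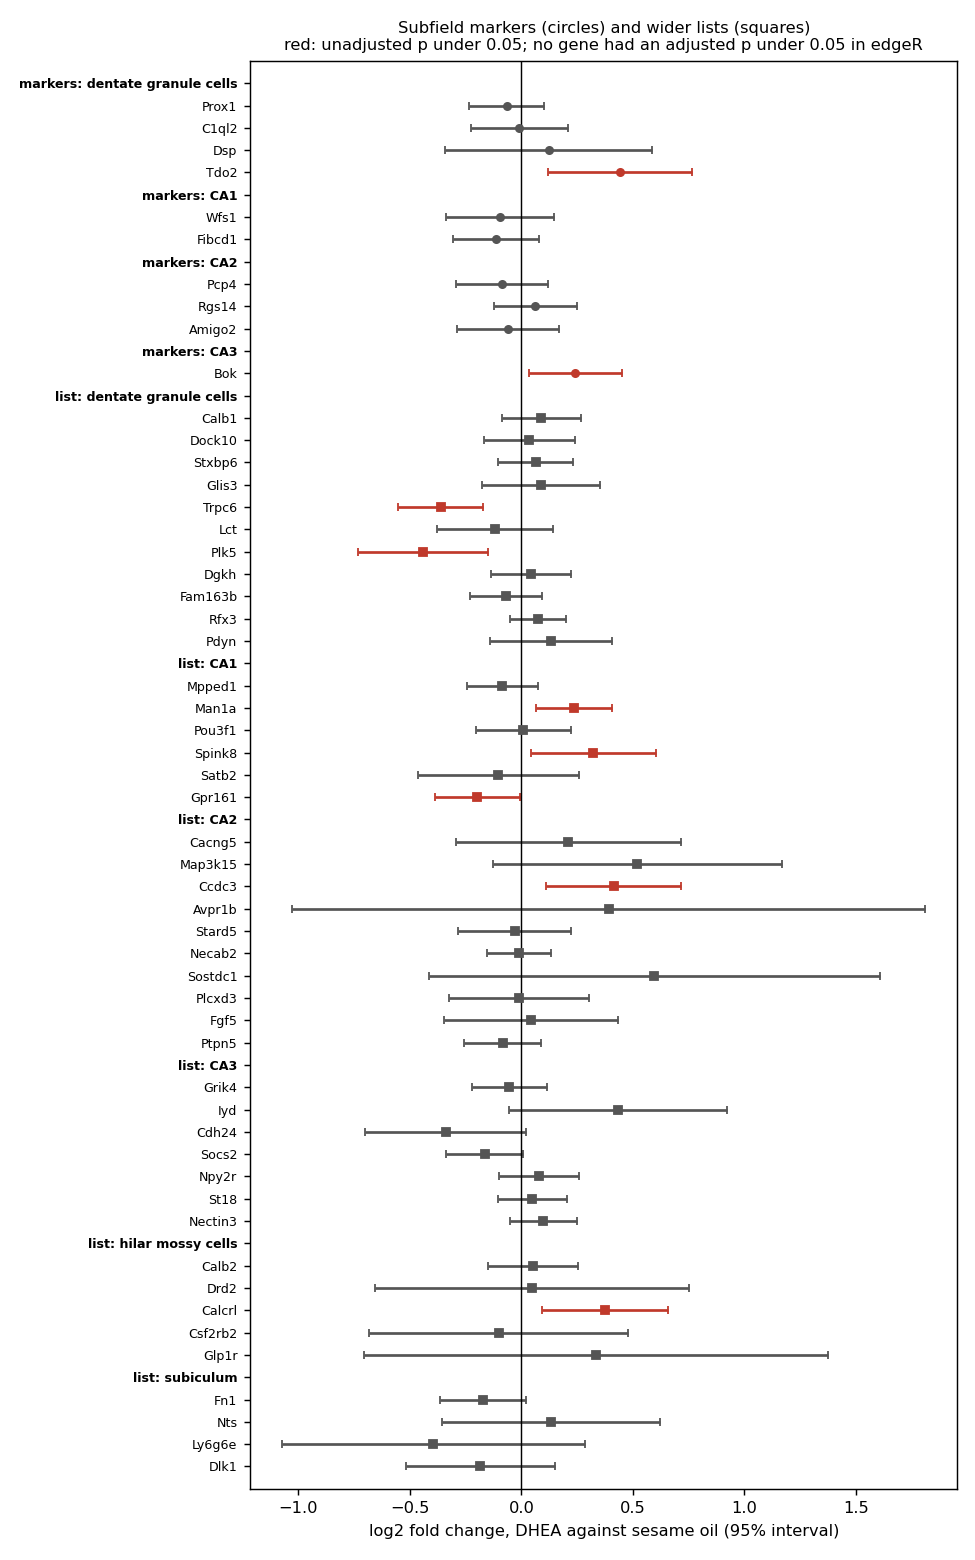
Log2 fold change of DHEA against sesame oil with its 95% interval for the 10 markers (circles) and 43 further field genes (squares), with an unadjusted p under 0.05 in red. Tdo2 (0.44) and Bok (0.24) are the markers in red, and no gene had an adjusted p under 0.05 in edgeR.

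Compared per length, as FPKM (fragments scaled to gene length and library total), the markers spanned a wide range of levels. Pcp4 stood first at 185 ± 24.0 FPKM (SD, n = 8 libraries), above each other marker in all 8 libraries. Wfs1 (29.3 ± 4.65), C1ql2 (25.2 ± 3.04), Bok (24.7 ± 3.35) and Rgs14 (22.7 ± 2.12) followed, and their ranges overlapped from each to the next. Wfs1 was above C1ql2 in 6 of 8 libraries, C1ql2 above Bok in 5 and Bok above Rgs14 in 7, so the order of these 4 was not fixed across animals. Rgs14 was above Fibcd1 (18.8 ± 2.25) in 8 of 8 libraries although their ranges overlapped, and Fibcd1 was above Prox1 (15.2 ± 1.51) in 6. Amigo2 (7.11 ± 0.928), Dsp (4.92 ± 1.37) and Tdo2 (3.94 ± 0.814) were the lowest. Amigo2 was above Dsp in 8 libraries, and Dsp was above Tdo2 in 6, all but HipR4 and HipR16. The transcript lengths behind these values run from 641 bases for Pcp4 to 9592 bases for Dsp. Pcp4 is also expressed outside CA2, in cortical and thalamic neurons.

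**Figure D3:**
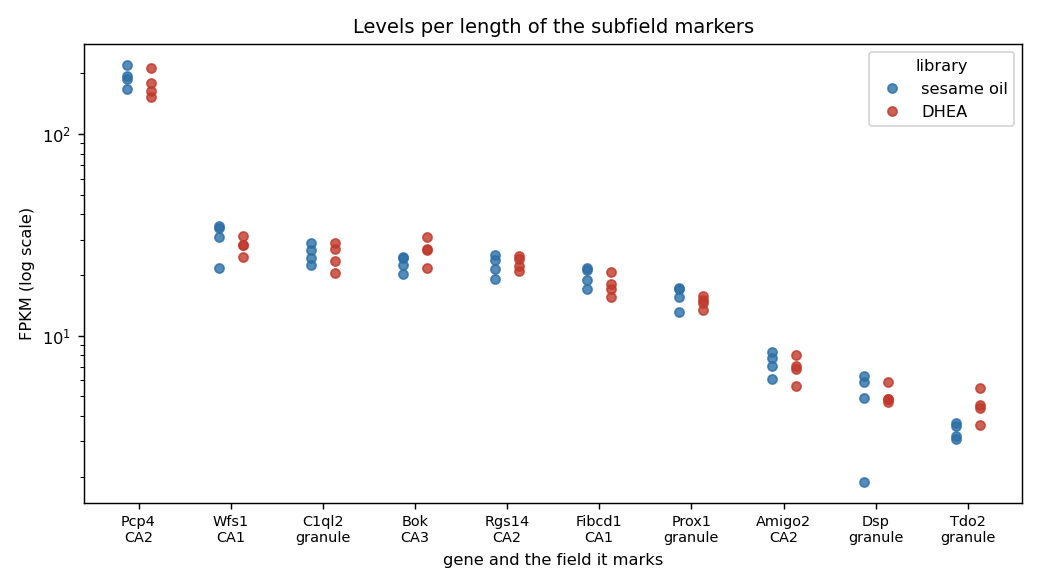
FPKM of the 10 markers in order of their mean, on a log axis, with 1 point per library (sesame oil blue, DHEA red). Pcp4 stands apart at 153 to 221 FPKM, and the 4 genes after it overlap in range.

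Markers of the same field did not all vary together across animals. Over the 8 libraries, Pearson's r of log2 CPM had a median of 0.34 in the 10 pairs from the same field (-0.66 to 0.78) and of 0.13 in the 35 pairs from different fields (-0.47 to 0.96). All points of a pair share the library and its depth. Of the 45 pairs, 2 had a Benjamini-Hochberg adjusted p under 0.05 in the two-sided exact permutation test of r. Tdo2 and Bok, from different fields, had r = 0.96 (p = 0.000620, adjusted p = 0.0140) and Spearman's rho = 0.93 (p = 0.00223, adjusted p = 0.0502). Without the 2 libraries farthest from the median of Tdo2, r was 0.88, and within the groups, as deviations from the group means, it was 0.97. Prox1 and Dsp, both of granule cells, had r = 0.78 (p = 0.000298, adjusted p = 0.0134) and rho = 0.98 (p = 0.000397, adjusted p = 0.0179). Without the 2 libraries farthest from the median of Prox1, r was 0.83, and within the groups 0.89. The CA1 pair Wfs1 and Fibcd1 had r = -0.11 and rho = -0.14, and the CA2 pair Pcp4 and Amigo2 had r = -0.66 and rho = -0.71, with permutation p of 0.791 and 0.752 for the first and 0.0757 and 0.0576 for the second.

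**Figure D4:**
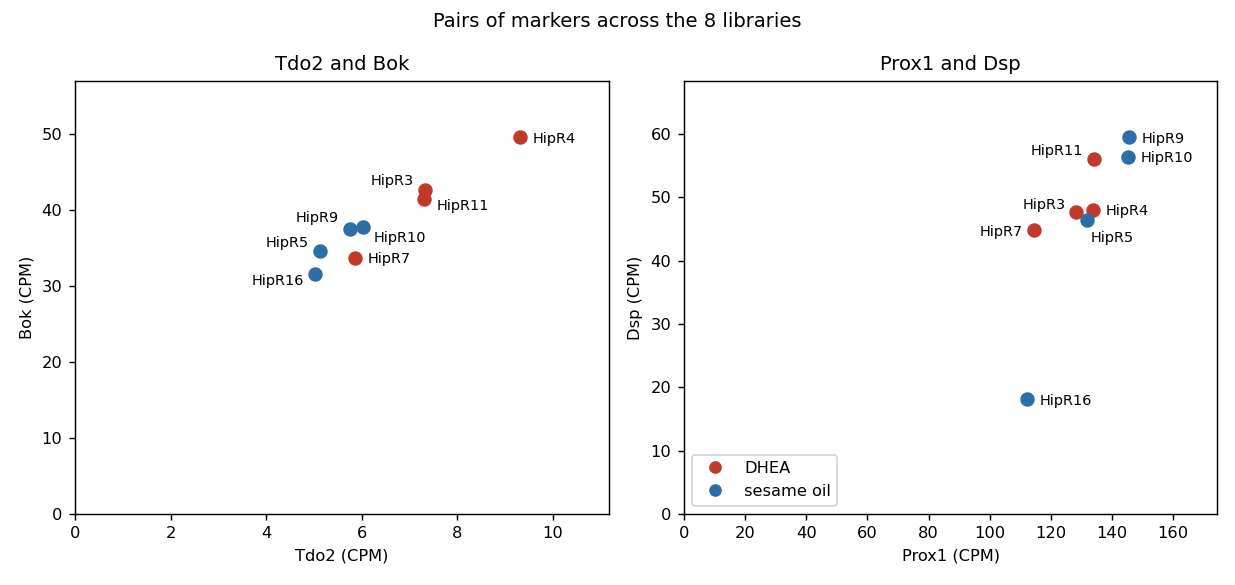
CPM of Bok against Tdo2 (left) and of Dsp against Prox1 (right) in the 8 libraries, DHEA in red and sesame oil in blue. Bok and Tdo2 rank the libraries nearly alike, with HipR4 highest and HipR16 lowest for both, and on the right HipR16 lies below the other 7 libraries for Dsp.

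By the rule of highest r over the 8 libraries among well-counted genes, the genes most like Prox1 were Aph1a (0.97), Camk2b (0.95) and Znrf3 (0.95), and those most like C1ql2 were Mrps34 (0.98), Mnat1 (0.98) and Pet100 (0.95). Those most like Dsp were Plekhg1 (0.98), Smim17 (0.97) and Rad50 (0.95), and those most like Tdo2 were Uri1, Gng12 and Tbl1xr1 (0.98 each). Wfs1 was most like Il1rapl2 (0.95), Dhx34 (0.93) and Adck2 (0.93), and Fibcd1 most like Tmem184c (0.98), Pibf1 (0.96) and Popdc3 (0.96). Pcp4 was most like Dpm1 (0.97), Ntpcr (0.96) and A2ml1 (0.95), Rgs14 most like Metap2 (0.98), Homer3 (0.97) and Cotl1 (0.97), and Amigo2 most like Mapk1ip1l (0.95), Dnah9 (0.93) and Haus7 (0.93). Bok was most like G6pdx, Nadk2 and 4930522L14Rik (0.98 each). None of the genes named here is another of the markers. The highest of so many correlations over 8 libraries are high by selection, and the values are a description.

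Of 43 further genes of these fields and their neighbors, taken from 6 lists, 7 had an unadjusted p under 0.05, 4 higher in DHEA and 3 lower. This is 16.3%, close to the 15.7% of well-counted genes, to which 38 of the 43 belonged. None passed the adjusted threshold in edgeR, the median log2 fold change was 0.044, and 2 genes, Trpc6 and Ccdc3, did not overlap between the groups, beside 5.04% of all genes and 8.46% of the well-counted genes.

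Among 11 further granule cell genes, 2 were lower at an unadjusted p under 0.05 and 0 higher. Trpc6, a receptor-operated cation channel, had CPM of 16.2, 18.5, 17.9 and 18.0 with DHEA (HipR3, HipR4, HipR7 and HipR11) and of 23.0, 25.1, 21.2 and 21.4 with sesame oil (HipR5, HipR10, HipR16 and HipR9). Each DHEA library was below every sesame oil library, and the log2 fold change was -0.36 (SE 0.091, edgeR adjusted p = 0.241). DESeq2, run as an alternative, called Trpc6 (adjusted p = 0.0210), whereas its adjusted p was 0.0850 to 0.727 under the other alternatives. Without HipR3 and HipR4 the log2 fold change was -0.34 (adjusted p = 0.418). Plk5, a polo-like kinase of postmitotic neurons, had a log2 fold change of -0.44 (9.60 ± 1.99 against 13.02 ± 1.47 CPM, adjusted p = 0.314) and -0.31 without HipR3 and HipR4 (adjusted p = 0.656), where its unadjusted p was above 0.05. Trpc6 and Plk5 thus lay below 0 and Tdo2 above, while 7 of the 11 genes had a log2 fold change above 0. Fam163b was the most abundant gene of this list (44.8 FPKM, log2 fold change -0.070), and Pdyn, the precursor of dynorphin, had its highest log2 fold change among well-counted genes (0.13, adjusted p = 0.678).

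Among 6 further CA1 genes, Man1a, a Golgi mannosidase (0.24, adjusted p = 0.369), and Spink8, a peptidase inhibitor (0.32, adjusted p = 0.469), had log2 fold changes above 0, and Gpr161, an orphan receptor of the primary cilium (-0.20, adjusted p = 0.522), one below 0. Without HipR3 and HipR4 these were 0.10, 0.17 and -0.24, and the unadjusted p was under 0.05 only for Gpr161. Without HipR5, however, Gpr161 stood at -0.12 (edgeR adjusted p = 0.749), and its unadjusted p was also above 0.05 with DESeq2, filterByExpr and limma-trend. Spink8 stood at 0.24 without HipR4, and its unadjusted edgeR p was up to 0.0990 with single libraries left out. With limma-trend on log2(FPKM + 1), the unadjusted p of Spink8 was above 0.05 as well. Mpped1, the most abundant gene of the list at 20.5 FPKM, stood at -0.085. Of 10 further CA2 genes only Ccdc3, a secreted coiled-coil protein, had an unadjusted p under 0.05, with CPM of 14.5, 16.6, 13.1 and 14.4 with DHEA and 11.6, 12.4, 7.36 and 12.6 with sesame oil. The DHEA libraries all lay above the sesame oil libraries, of which HipR16 was the lowest (log2 fold change 0.41, edgeR adjusted p = 0.381), 0.32 without HipR3 and HipR4 (adjusted p = 0.714, unadjusted above 0.05) and 0.26 without HipR16. Necab2, a calcium-binding protein and the most abundant of this list at 29.1 FPKM, was at -0.011, and Ptpn5, the phosphatase STEP, had the lowest log2 fold change (-0.083). Sostdc1, a secreted antagonist of BMP and Wnt signals that is also made by the choroid plexus, had the highest (0.60, adjusted p = 0.666) and ranged from 2.80 CPM in HipR4 to 36.7 CPM in HipR3.

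None of 7 further CA3 genes (0) had an unadjusted p under 0.05, beside 9.31% of all genes and 15.7% of the well-counted genes. Npy2r, the neuropeptide Y receptor and the most abundant of them at 12.1 FPKM, had a log2 fold change of 0.079, and the extremes were Iyd at 0.43 (adjusted p = 0.585) and Cdh24, a cadherin, at -0.34 (adjusted p = 0.557). The difference between Bok and these genes was not tested. Of 5 genes of hilar mossy cells, Calcrl, a receptor component for calcitonin gene-related peptide that endothelium also makes, was higher at an unadjusted p under 0.05 (0.37, adjusted p = 0.389) and at 0.19 without HipR3 and HipR4 (adjusted p = 0.763), with an unadjusted p above 0.05 there, without HipR4 and with limma-trend on log2(FPKM + 1), while Calb2 (calretinin, 23.4 FPKM) was at 0.052. Of 4 genes of the subiculum 0 had an unadjusted p under 0.05, with Fn1 (fibronectin, 9.86 FPKM) at -0.17, Nts (neurotensin) at 0.13 and Dlk1 at -0.18.

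Markers of other tissues and cells were also at unequal levels across the libraries, and the shares of all genes and of well-counted genes with an unadjusted p under 0.05, 9.31% and 15.7%, stand beside each count of them. The summed CPM of 6 oligodendrocyte genes were 6163, 7802, 6087 and 6283 with DHEA (HipR3, HipR4, HipR7 and HipR11) and 4933, 4909, 4159 and 5931 with sesame oil (HipR5, HipR10, HipR16 and HipR9), without overlap (two-sided exact permutation p = 0.0286, the smallest possible, n = 4 per group). All 6 genes had an unadjusted p under 0.05 and a log2 fold change above 0, with a median of 0.39, and 0 had an adjusted p under 0.05. The sums of 3 genes of their precursors were 164 ± 5.79 with DHEA and 146 ± 4.995 CPM with sesame oil (exact permutation p = 0.0286). Of these 3 genes, Pdgfra had an unadjusted p under 0.05 (log2 fold change 0.25, adjusted p = 0.275). Of 6 astrocyte genes 4 did, with sums of 5746 ± 456 and 5070 ± 339 CPM (exact permutation p = 0.0571, n = 4), and of 4 endothelial genes 2 did, including Ly6c1 (0.43, adjusted p = 0.223), with sums of 188 ± 17.6 and 172 ± 3.54 CPM. Ly6c1 had an adjusted p of 0.0198 with DESeq2 and 0.0305 in edgeR without HipR7, and of 0.0533 to 0.727 under the other alternatives. Pecam1 of the same list had one of 0.0472 without HipR7 and of 0.164 to 0.727 under the others. Of 5 microglial genes 2 were higher at this threshold, with sums of 234 ± 31.1 and 205 ± 12.7 CPM. Not all of these genes held under the alternatives: of the microglial genes, P2ry12 went from a log2 fold change of 0.37 to 0.076 without HipR3 and HipR4 (edgeR adjusted p = 0.786). Without these libraries, the astrocyte genes Gfap, Slc1a3 and Gja1, the oligodendrocyte gene Mag, the endothelial gene Pecam1 and the microglial genes P2ry12 and C1qa had an unadjusted p above 0.05.

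Of 5 excitatory neuron genes, led by Camk2a, and of 7 interneuron genes, led by Sst, 0 had an unadjusted p under 0.05. Of 5 genes of all neurons, Rbfox3 (NeuN) was lower with DHEA at 221 ± 5.65 against 247 ± 5.73 CPM, without overlap (log2 fold change -0.16, adjusted p = 0.348). The sums of the neuronal list were 4179 ± 209 and 4212 ± 221 CPM.

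Markers of tissue next to the hippocampus were at unequal levels. The summed CPM of 6 choroid plexus genes, led by Ttr, were 4493, 93.9, 2213 and 4158 with DHEA and 3137, 2041, 2273 and 512 with sesame oil, in the same library order. The low libraries HipR4 and HipR9 were 1 of each group, and the highest, HipR3 and HipR11, were both of the DHEA group. The sum of 6 neocortical genes, led by Lamp5, was 246 CPM in HipR16 and 156 to 195 CPM in the other libraries, and Fezf2 of that list was lower with DHEA at an unadjusted p under 0.05 (-0.39, adjusted p = 0.245 in edgeR, 0.0498 with DESeq2 and 0.0903 to 0.727 under the other alternatives). Of 6 thalamic genes, led by Slc17a6, Rora had an unadjusted p under 0.05 (0.23, adjusted p = 0.485). It did not with DESeq2, filterByExpr, at least 10 counts over the libraries, the GC correction or limma-trend. With single libraries left out, its unadjusted edgeR p was up to 0.109, and its log2 fold change was 0.17 without HipR11. Of 5 striatal genes, led by Ppp1r1b, and of 5 meningeal genes, led by Dcn, 0 had an unadjusted p under 0.05. The same held for 5 ventral hippocampal genes, led by Htr2c, a list of the hippocampus itself. Like the choroid plexus sum, Htr2c and Ppp1r1b were lowest in HipR4 and HipR9 and highest in HipR3 and HipR11. No other gene of the ventral hippocampal and striatal lists had these libraries at both ends. The part of choroid plexus tissue in the values of Htr2c and Ppp1r1b was not tested.

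Across the 8 libraries, 208 relations between the markers and these list sums were computed, and 0 had a Benjamini-Hochberg adjusted p under 0.05 in the exact permutation test. The lowest adjusted p was 0.0619, for Pcp4 with the choroid plexus sum (r = -0.86, rho = -0.86, -0.91 without the 2 farthest libraries) and for Rgs14 with the neocortical sum (r = -0.92, rho = -0.90, -0.87 without them). Bok and Tdo2 had r = 0.92 and r = 0.89 with the endothelial sum (rho = 0.88 and 0.71, adjusted permutation p = 0.105 and 0.163). With the oligodendrocyte sum, Tdo2 had r = 0.88 (rho = 0.83, 0.74 without the 2 farthest libraries) and Bok r = 0.84 (rho = 0.76, 0.45 without them), with adjusted permutation p of 0.163 and 0.277. With the sum of the further genes of their own field, the granule cell markers had r from 0.56 (Dsp) to 0.74 (Prox1). For CA1, Wfs1 had r = 0.13 and Fibcd1 r = 0.75. For CA2, r was -0.21 for Pcp4, 0.048 for Rgs14 and 0.23 for Amigo2, and for CA3 it was 0.30 for Bok. HipR4 had the highest Tdo2, Bok, oligodendrocyte, astrocyte, microglial and endothelial values, whereas HipR7 had the second highest astrocyte sum with the second lowest Bok and the lowest endothelial sum. The part of these cells in the values of Tdo2 and Bok was not tested.

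The share of mitochondrial counts was 7.87%, 9.34%, 7.58% and 7.29% in the DHEA libraries HipR3, HipR4, HipR7 and HipR11, and 6.37%, 7.23%, 6.99% and 6.87% in the sesame oil libraries HipR5, HipR10, HipR16 and HipR9, without overlap. Across genes, the deviation of a library's log2 CPM from the mean had a negative correlation with GC content in all 4 DHEA libraries (r from -0.113 to -0.00445) and a positive one in all 4 sesame oil libraries (0.0558 to 0.136). Both measures thus moved with the groups. With the GC correction, the log2 fold changes were 0.37 for Tdo2 and 0.29 for Bok.

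The library HipR4 had the highest C1ql2, Tdo2, Pcp4, Rgs14 and Bok and the lowest Amigo2 of the 8. On the first principal component of the genes averaging 10 counts or more (33.4% of the variance), HipR4 and HipR3 stood apart from the other 6. HipR16 had the lowest Prox1, Dsp, Tdo2, Rgs14 and Bok, together with the highest neocortical and the lowest oligodendrocyte sum. The part of these features, and of the mitochondrial share, in the marker values was not tested.

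**Figure D5:**
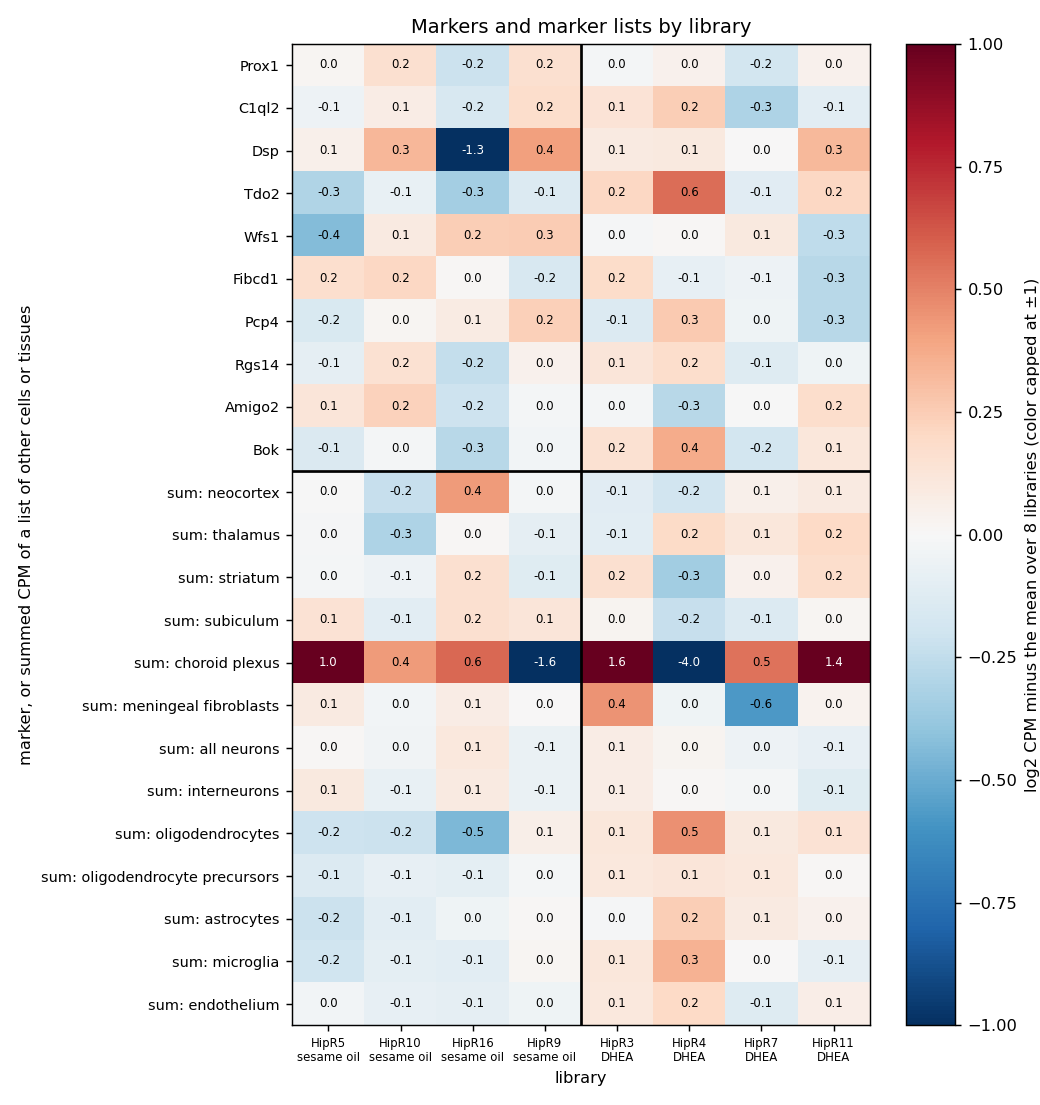
Log2 CPM of the 10 markers and of the summed lists of other cells and tissues in each library, minus the mean over the 8 libraries (red above, blue below, color capped at ±1), with sesame oil on the left and DHEA on the right. Oligodendrocyte sums are higher in the DHEA libraries, choroid plexus sums vary from library to library in both groups, and Dsp in HipR16 is the lowest value among the markers.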

How the data were processed

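Poly(A) RNA of 8 hippocampal samples was sequenced by the authors, 1 library per mouse. The submitters' processing notes name fastp, HISAT2, HTSeq and GRCm39. Their versions, the annotation and whether counting used strand are not given in the sources used here. The authors deposited raw counts per gene and FPKM values. The deposited FPKM equal the count divided by the library total and by 1 length per gene (within 0.1% for 25234 of 25234 genes). The labels gave each library's group, and 0 columns lacked a sample. P-values measure the spread between these mice.

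Counts of the 27612 genes with at least 1 count were fitted with edgeR 4.0.16 in R 4.3.3 (TMM, quasi-likelihood test, prior count 0.125, Benjamini-Hochberg adjustment). The SE is the log2 fold change divided by the square root of F. Single values were compared over the 70 allocations of 4 libraries against 4, and correlations of log2(CPM + 0.5) over 40320 pairings. No 2 libraries of a group agreed within sampling noise.

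The markers and lists were chosen with earlier results of these data known. Named were all 10 markers. Of each further field list, the genes with an unadjusted p under 0.05 (at most 4), the most abundant gene and those with the highest and lowest log2 fold change among genes averaging 100 counts or more were named. Of each other list, the most abundant gene and up to 3 genes with an unadjusted p under 0.05 were eligible, and 1 listed gene is not reported here by name. Alternatives were DESeq2 1.42.0, RLE size factors, at least 10 counts, filterByExpr, robust moderation, a prior count of 1, limma-trend (limma 3.58.1) on log2(FPKM + 1) and log2(FPKM + 0.1), a GC correction, thinning to equal totals, and leaving out libraries. Only the edgeR fit was tested on simulated data, with 200 genes changed. At an adjusted p under 0.05 it recovered 97% of the 2-fold and 77% of the 1.5-fold changes. It also called 28 unchanged genes.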

Additional observations from a re-analysis of the deposited data

Results flagged for a closer look

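In groups of 4 libraries, a value far from the others was looked for in 62 sets (the 10 markers and the sums of the lists in each group), and 3 sets held one. Chance alone marks about 1 set in 20. The summed CPM of the 4 subiculum genes in the sesame oil library HipR10 was 94.9, against 111 to 114 in the other 3. The summed CPM of the oligodendrocyte genes in the DHEA library HipR4 was 7802, against 6087 to 6283. The summed CPM of the oligodendrocyte precursor genes in the DHEA library HipR11 was 156, against 166 to 168. None of the 10 markers met this criterion, and Dsp in HipR16, the lowest value of its group, did not reach the critical value.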

How the results depend on the processing

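Replicates 1 to 4 are HipR3, HipR4, HipR7 and HipR11 for DHEA and HipR5, HipR10, HipR16 and HipR9 for sesame oil. Under 19 alternatives, 179 of 190 marker values kept their sign and no marker reached an adjusted p under 0.05 in any of them, the lowest being 0.0803 for Bok and 0.0943 for Tdo2, both without HipR7. The other 11 changed sign. C1ql2 went to 0.045 with the GC correction. Without HipR3 and HipR4, Amigo2 went to 0.044 and Rgs14 to -0.064. With single libraries left out, C1ql2 ranged from -0.11 to 0.082 (above 0 without HipR7, HipR9, HipR10 or HipR11), Amigo2 from -0.14 to 0.0096 (above 0 without HipR4 or HipR10), Dsp from -0.15 (without HipR16) to 0.28, and Rgs14 from -0.0093 (without HipR16) to 0.13. The count of markers with an unadjusted p under 0.05, 2 in the reported fit, was 1 with filterByExpr, 1 with limma-trend at either pseudocount (Tdo2 in each, Bok being lost), and 3 without HipR3 and HipR4, when C1ql2, Fibcd1 and Pcp4 (-0.23, -0.23 and -0.22) took the place of Tdo2 and Bok. It was 1 to 3 when single libraries were left out, and the gene left was Pcp4 without HipR4 and Tdo2 without HipR16. The count of further field genes, 7, was 4 with limma-trend on log2(FPKM + 1) and 5 to 10 without single libraries. Of all genes, 0 had an adjusted p under 0.05, against 153 with DESeq2, 4 with robust moderation, 1 without HipR3 and HipR4, and 0 to 93 without single libraries (93 without HipR7, 12 without HipR11). At an unadjusted p under 0.05 the count was 1786 to 3667, against 2571. The alternatives for the further genes were chosen after seeing the data: of 475 values of 25 listed genes, 0 changed sign, 6 reached an adjusted p under 0.05 and 399 had an unadjusted p under 0.05, and 9 of the 25 genes had one under every alternative. The cause of these changes was not tested. No paired analysis was possible because the labels give no number that pairs libraries of the groups. The number of mice, 4 per group, limits the precision, and for Tdo2, at 158 to 332 counts per library, counting error adds to it.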

Other observations

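Set against Prox1 in the same library, Tdo2 counts were 5.12% to 6.96% of those of Prox1 with DHEA and 3.90% to 4.47% with sesame oil, and Bok counts were 29.5% to 37.0% and 25.8% to 28.1%, so neither ratio overlapped between the groups. Single genes did not overlap in 5.04% of all genes and 8.46% of those averaging 100 counts or more. These are shares of gene levels, and the share of ratios to Prox1 without overlap was not computed. The ratios of Tdo2 and Bok were chosen after the values were seen, and no test was made of them. The ratios of C1ql2 (34.7% to 44.4% and 36.4% to 40.1%), Dsp, Wfs1, Fibcd1 and Pcp4 to Prox1 overlapped.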
